A study of Mus musculus with 18 samples.

Results

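The keratin-associated proteins of hair are encoded in the mouse by the Krtap genes. Members were taken by name, as protein-coding genes whose symbol starts with Krtap, and 57 of the 35150 genes in the expression table met that rule. Values are in TPM, a share of the transcripts of a sample that allows for transcript length, summed over the transcripts of each gene. Of the 57 genes, 56 had a mean of at least 1 TPM over the 18 samples and are described here. The lowest of these were Krtap9-5 at 1.08 TPM and Krtap31-2 at 1.61 TPM, and Krtap13, the gene left out, was at 0.0498 TPM. One further entry, Krtap19-9a, is annotated as a pseudogene and was not counted, although its mean was 259 TPM.

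The samples were punch biopsies of the rostral whisker pad, taken with skin and muscle from 9 mice. In each mouse 2 branches of the facial nerve, the buccal and the superior marginal, were cut on the right side (R, lesioned), and on the left side (L, sham, labelled Intact) the skin was opened and closed over an uncut nerve. Depilatory cream was used behind the whisker pad before the nerve was cut (whether also on the sham side is not given in the sources used here), and the fur was trimmed before the biopsies were taken at day 1, day 3, or day 7, with 3 mice at each day. The mice were adults of both sexes, and their ages differed. The strain and genotype of the sequenced mice are not given in the sources used here. The lesioned and sham samples of a mouse therefore share the animal, the anesthesia, and the skin incision, and differ in the nerve cut and in the side of the face. Each day is a different group of mice, so day and mouse cannot be told apart.

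A hair shaft is built from keratin filaments held in a matrix of keratin-associated proteins. The matrix proteins are small and are made late, as cells of the hair cortex and cuticle harden above the growing bulb of the follicle. They are sorted by composition into high glycine-tyrosine, high sulfur, and ultrahigh sulfur proteins, and the sulfur is that of cysteine, which cross-links the matrix through disulfide bonds. Subfamilies 5, 10, 12, and 17 are best known from the hair cuticle, whereas subfamilies 1, 2, 3, 4, 8, 9, and 11 are best known from the cortex.

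The 57 genes fell into 27 numbered subfamilies and 5 chromosomal clusters. The largest clusters were on chromosome 16, with 24 genes (GRCm38, 88610705 to 89571183), and on chromosome 11, with 23 genes (99550130 to 99993994). Chromosome 7 held the 5 genes of subfamily 5, chromosome 10 held 3 genes of subfamilies 10 and 12, and chromosome 1 held the 2 genes of subfamily 28. The genes were compact: 52 of the 57 had 1 exon, and the median transcript length was 856 bases, with a range of 304 to 1888.

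Cysteine in the proteins predicted from the annotated coding sequences ran from 0% in Krtap19-9b to 42.9% in Krtap28-10. Glycine and tyrosine together reached 69.2%, in Krtap6-1. With a limit of over 30% cysteine for ultrahigh sulfur and of at least 25% glycine and tyrosine for the rest, 21 of the 56 genes were ultrahigh sulfur, 19 high sulfur, and 16 high glycine-tyrosine. The second limit was set after the compositions were seen, and every protein that met neither limit was counted as high sulfur, even Krtap15 with 4.0% cysteine. It separated Krtap7-1, with 29.9% glycine and tyrosine, from Krtap15, with 24.0%, and a few ultrahigh sulfur proteins were also rich in glycine and tyrosine, such as Krtap28-10 with 38.7% and Krtap17-1 with 34.9%.

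**Figure D1:**
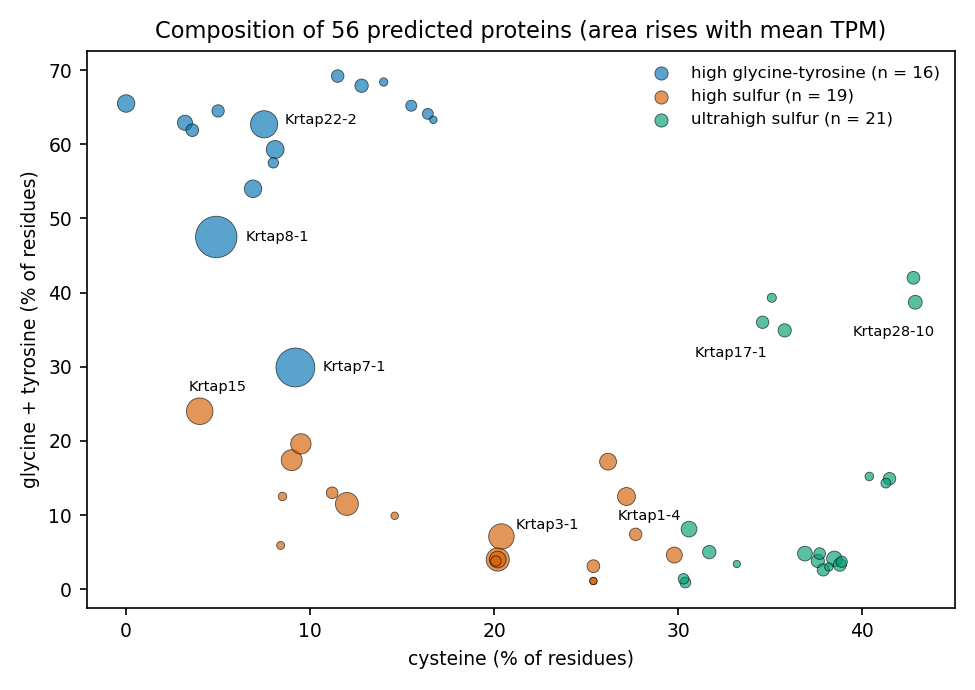
Each point is 1 of 56 predicted proteins, with cysteine (% of residues) on the x axis and glycine plus tyrosine (% of residues) on the y axis, colored by class and with an area that rises with mean TPM. The largest points, Krtap8-1 and Krtap7-1, lie at low cysteine, and 21 proteins lie above 30% cysteine.

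Promoter sequence was available from RefSeq (GRCm38.p6) for 51 of the 57 genes. The printed promoters are those of members on which the results below turn. Each line gives the 60 bases before the RefSeq start, 5′ to 3′ on the strand of the gene, and the capitals mark a TATA box, searched as TATAAA, or as TATATAA where TATAAA was absent.
Krtap1-4, chr11:99583678-99583737, minus strand: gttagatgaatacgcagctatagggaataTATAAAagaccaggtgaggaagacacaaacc
Krtap3-1, chr11:99566631-99566690, minus strand: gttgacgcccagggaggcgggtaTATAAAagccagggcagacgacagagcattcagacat
Krtap3-2, chr11:99556854-99556913, minus strand: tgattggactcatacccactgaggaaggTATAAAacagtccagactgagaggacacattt
Krtap3-3, chr11:99550864-99550923, minus strand: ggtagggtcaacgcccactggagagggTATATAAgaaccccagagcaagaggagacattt
Krtap9-3, chr11:99598107-99598166, minus strand: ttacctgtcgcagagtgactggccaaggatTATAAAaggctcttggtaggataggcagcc
Krtap8-1, chr16:89487953-89488012, minus strand: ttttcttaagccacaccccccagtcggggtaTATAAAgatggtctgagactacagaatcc
Krtap31-1, chr11:99907860-99907919, plus strand: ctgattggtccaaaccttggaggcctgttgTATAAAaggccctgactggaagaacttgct
Krtap31-2, chr11:99936231-99936290, plus strand: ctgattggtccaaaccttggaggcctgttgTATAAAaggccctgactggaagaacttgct
Krtap9-5, chr11:99948364-99948423, plus strand: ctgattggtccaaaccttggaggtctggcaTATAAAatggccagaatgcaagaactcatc
Krtap6-3, chr16:89083964-89084023, plus strand: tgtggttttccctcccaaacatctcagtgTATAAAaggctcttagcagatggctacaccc
Krtap20-2, chr16:89205801-89205860, plus strand: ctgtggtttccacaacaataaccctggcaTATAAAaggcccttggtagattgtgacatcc

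TATAAA lay on the gene strand from 40 to 16 bases before the start in 31 of the 51 Krtap promoters (60.8%), against 2.0% of 32851 mouse promoters. With TATATAA counted as well, which can overlap TATAAA, the counts were 35 of 51 (68.6%) and 2.4%. The motif CTTTGA, the core of sites bound by LEF and TCF factors, was in 12 of 51 Krtap promoters (23.5%) on either strand within 250 bases, against 13.8% of all. The variant TATATAA was added after the promoters were seen. A match is a run of letters in this window and was not tested for binding.

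The promoters of Krtap31-1 and Krtap31-2 were the same at 60 of 60 bases, and that of Krtap9-5, their neighbor on chromosome 11, matched them at 47 of 60. Those of Krtap6-3 and Krtap20-2 on chromosome 16 matched at 36 of 60. Likeness of this degree was not limited to these genes: Krtap4-6 and Krtap4-7 matched at 38 of 60, and Krtap19-9b and Krtap6-3 at 34. Over all 1275 pairs of Krtap promoters, compared base by base without gaps, the median was 16.

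The samples held an estimated 10300000 to 31800000 reads, with a median of 14250000. The largest was the lesioned side of day 1 mouse 1, which also had the highest Krtap sum. Defining markers of skin and muscle were found in every sample, with 8 skeletal muscle genes summing to 4578 to 27591 TPM and 9 genes of the interfollicular epidermis summing to 6644 to 14727 TPM. In tissue of this kind, fewer hair-forming cells and less RNA per cell cannot be told apart.

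Krtap8-1 and Krtap7-1, both high glycine-tyrosine proteins of 61 and 87 residues, were the most abundant members. Krtap8-1 ranged from 286 to 3644 TPM over the 18 samples with a median of 1231, and Krtap7-1 from 373 to 3058 TPM with a median of 1100. They were followed by Krtap22-2 with a mean of 633 TPM, Krtap15 with 603, Krtap3-1 with 552, Krtap3-3 with 446, Krtap11-1 with 437, Krtap14 with 354, Krtap13-1 with 334, and Krtap9-3 with 248. These 10 genes made up 60.1% of the summed Krtap TPM. Their order was not fixed from sample to sample: in the sham side of day 7 mouse 1, Krtap7-1 at 1024 TPM was above Krtap8-1 at 710 TPM, and the ranges of the 10 genes overlapped.

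By class, the 16 high glycine-tyrosine genes held 46.3% of the Krtap TPM, the high sulfur genes 36.6%, and the 21 ultrahigh sulfur genes 17.1%. The share of the ultrahigh sulfur genes was the most variable of these, from 9.85% to 28.8% of the Krtap sum of a sample. Subfamily 8, with 1 gene, held 14.2% of the sum, subfamily 7 held 12.4%, and the 3 genes of subfamily 3 held 11.2%. Subfamily 19, with 6 genes that code for proteins with 54.0% or more glycine and tyrosine, held 8.14% and was led by Krtap19-9b at a mean of 235 TPM.

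The other subfamilies were led by genes at lower levels. Means of 100 to 250 TPM were found for Krtap16-3 (248), Krtap1-5 (215), Krtap2-4 (187), Krtap4-1 (172), Krtap28-10 (129), Krtap6-5 (117), Krtap17-1 (114), and Krtap12-1 (103). Below these were Krtap5-5 (95.5), Krtap26-1 (78.2), Krtap21-1 (62.1), Krtap10-10 (60.6), Krtap24-1 (17.5), and Krtap27-1 (10.7). The lowest subfamilies were led by Krtap20-2 (4.23), Krtap29-1 (4.21), and Krtap31-1 (3.23). Subfamily 4 had the most members, 8 genes that summed to a mean of 808 TPM, and subfamily 19 had the widest range of any subfamily detected in all samples, with its highest sample 65.8 times its lowest.

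Some close relatives cannot be fully separated by the method. Transcripts were assigned from runs of 31 bases, and in 23 of the 57 genes under 80% of these runs were unique to the gene. Only 55% of the runs of Krtap31-1, 52.6% of those of Krtap31-2, and 48.2% of those of Krtap4-13 were unique, so their separate levels are uncertain. Krtap3-3 shared 42.9% of its runs with Krtap3-2. By contrast, 12 genes, Krtap8-1, Krtap7-1, Krtap22-2, and Krtap11-1 among them, had unique runs only.

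The summed Krtap TPM varied widely between mice and between the sides of a mouse. It was 0.281% to 2.82% of all TPM of a sample, and the highest sum was 8.38 times the lowest. At day 1 the sum went from 6330 TPM on the sham side to 24294 on the lesioned side in mouse 1, from 5803 to 5228 in mouse 2, and from 2897 to 4511 in mouse 3. At day 3 it went from 24069 to 19553, from 22674 to 11192, and from 15112 to 7309 TPM. At day 7 it went from 6997 to 3655, from 9671 to 3054, and from 9269 to 12681 TPM.

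The lesioned side thus held the higher sum in 3 of the 9 mice, and the lower sum in all 3 mice of day 3. The log2 difference of the sum, R minus L, averaged -0.23 ± 1.11 (SD, n = 9 mice), so its spread was larger than its mean.

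**Figure D2:**
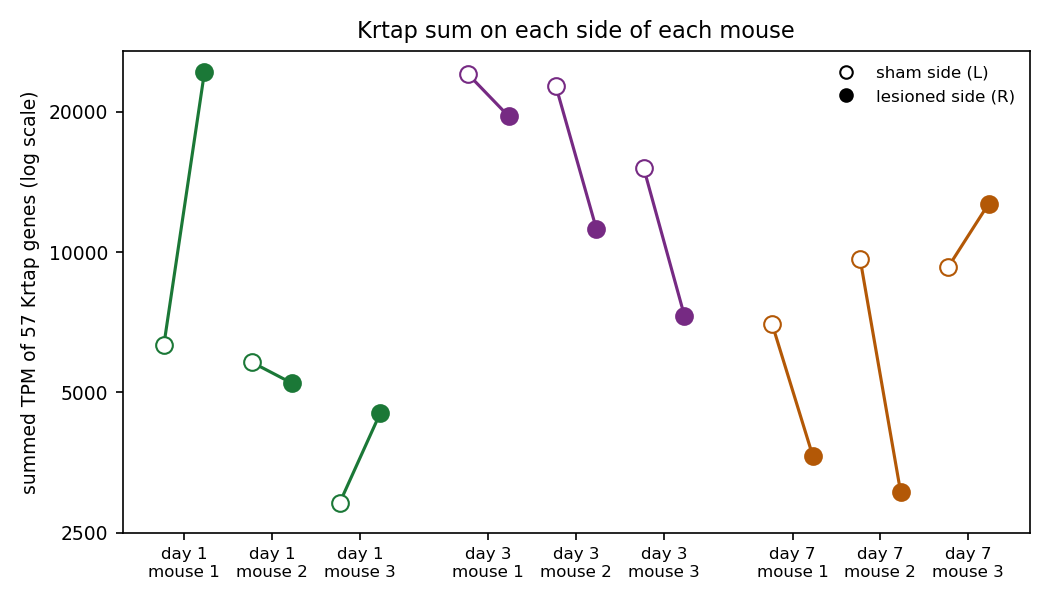
The summed TPM of 57 Krtap genes (y axis, log scale) is shown for each of 9 mice (x axis), with the sham side as an open circle, the lesioned side as a filled circle, and a line joining the sides of a mouse. The sum was lower on the lesioned side in all 3 mice of day 3, and the steepest line joins 6330 and 24294 TPM in day 1 mouse 1.

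Lesioned and sham sides were compared first at day 1. Most members were higher on the lesioned side: the median over 56 members of the mean log2 difference, R minus L, was 0.97, and 40 members were higher in all 3 mice, a pattern found in 14.9% of the 15032 genes with a mean of at least 1 TPM. No member was lower in all 3 mice. Members share cells and samples and are not independent of each other. In limma's moderated test with Benjamini-Hochberg adjustment, 0 of 55 members tested were called at an adjusted p under 0.05, and 0% of 14776 genes were. An unadjusted p under 0.05 was found for 4 members and for 634 genes. This fit took the sides of a mouse as separate samples. With the mouse as a term, 31 members (56.4%) and 6.18% of genes had an unadjusted p under 0.05, and 0 members were called.

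The day 1 differences were of unequal size between mice. The median over members was 1.79 in mouse 1, 0.69 in mouse 2, and 0.51 in mouse 3, whereas the median over all genes with a mean of at least 1 TPM was at most 0.03. Without mouse 1 the median of the mean differences was 0.54. The lesioned samples were all above the sham samples for 5 members (8.93%), against 5.5% of all genes.

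Krtap9-5, an ultrahigh sulfur gene at low level, had the smallest p at day 1. Its sham levels were 0.142, 0.0776, and 0.0782 TPM and its lesioned levels 1.32, 2.04, and 1.87 TPM. The groups did not overlap, and the log2 difference was 1.89 ± 0.25 (SE, adjusted p = 0.32, limma with Benjamini-Hochberg adjustment). Only the 3 lesioned samples reached the 1 TPM required for testing, so the gene was tested only through the side where it was high. Its small p and the lack of overlap therefore do not count as support for a difference. Without the mean-variance trend in limma Krtap9-5 was the 1 member called, with an adjusted p of 0.047 and the same limit. Krtap31-1 and Krtap31-2 had the highest mean differences of any member at day 1, with log2 values of 2.48 ± 1.45 and 2.16 ± 1.6 (SD, n = 3). Krtap31-1 went from 0.240 to 1.62 TPM in mouse 1, from 3.44 to 13 in mouse 2, and from 0.0881 to 9.91 in mouse 3. It was the lesioned sides of mice 2 and 3 that were high, whereas most other members had their largest difference in mouse 1.

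The lowest day 1 differences were those of 3 high glycine-tyrosine genes, Krtap20-2 (-1.06 ± 1.20), Krtap6-3 (-0.26 ± 1.88), and Krtap6-5 (0.41 ± 0.60, SD, n = 3, log2). In mouse 1, where the Krtap sum was higher on the lesioned side, Krtap20-2 went from 6.77 to 1.09 TPM and Krtap6-3 from 18.8 to 4.27 TPM. These 2 genes were the members that were lower on the lesioned side of that mouse. The most abundant gene, Krtap8-1, was higher in mouse 1 (835 to 3624 TPM) and mouse 3 (286 to 568 TPM) and lower in mouse 2 (1221 to 583 TPM). Krtap7-1, Krtap15, Krtap11-1, Krtap14, and Krtap13-1 divided the mice in the same way.

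At day 3 the direction was the opposite. All 56 members had a mean log2 difference below 0, with a median of -0.74 and a range of -1.82 to -0.18. A lower level on the lesioned side in all 3 mice was found in 37 members, against 21.8% of all genes, and a higher level in all 3 mice in no member. The median over members was -0.27 in mouse 1, -0.73 in mouse 2, and -0.95 in mouse 3. When each sample was divided by its summed hair shaft keratins, the median became 0.25, since the keratins were also lower on the lesioned side.

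In limma with Benjamini-Hochberg adjustment, 0 of 55 members tested at day 3 were called, against 1.45% of 14943 genes. An unadjusted p under 0.05 was found for 8 members and 2196 genes. With the mouse as a term in the fit, 217 of 14943 genes (1.45%) and 1 of 55 members were called. The member was Krtap19-1 (log2 difference of -0.87, with an adjusted p of 0.023 in limma). It was lower in 3 of 3 mice, from 141 to 72.8, from 36.5 to 20.9, and from 40.8 to 21.9 TPM. Lesioned samples were all below sham samples for 5 members (8.93%), against 9.81% of all genes.

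Krtap1-4, a high sulfur gene, had the smallest p at day 3. Its sham levels were 182, 253, and 242 TPM and its lesioned levels 151, 97.3, and 92.8 TPM. The groups did not overlap, and the log2 difference was -1.01 (SE 0.22, adjusted p = 0.11, limma with Benjamini-Hochberg adjustment). Without day 3 mouse 1 it was called, with an adjusted p of 0.020. The lowest mean differences were those of Krtap6-3 (-1.82 ± 2.19), Krtap31-2 (-1.66 ± 1.57), and Krtap31-1 (-1.40 ± 1.34, SD, n = 3, log2). The smallest differences were those of Krtap12-1 (-0.18 ± 0.60), Krtap10-10 (-0.23 ± 0.29), and Krtap4-13 (-0.33 ± 0.39), and both of the first 2 lie on chromosome 10.

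The 10 most abundant members were lower on the lesioned side in 3 of 3 mice of day 3. Of these, Krtap3-1 and Krtap9-3 had lesioned levels that were all below the sham levels, at 1042, 683, and 412 TPM against 1260, 1487, and 1070 TPM for Krtap3-1, and at 404, 327, and 202 TPM against 452, 589, and 490 TPM for Krtap9-3. Such separation was no more frequent among members (8.93%) than among all genes (9.81%). Krtap8-1 went from 3232 to 3156, from 3644 to 1387, and from 1797 to 956 TPM. Krtap22-2, a high glycine-tyrosine gene, went from 1368 to 1078, from 1666 to 966, and from 1062 to 473 TPM. For Krtap8-1 and Krtap22-2 the lesioned and sham ranges overlapped, in Krtap22-2 only through the lesioned side of mouse 1 at 1078 TPM against the lowest sham side at 1062 TPM. Mouse 1 had the smallest difference in both genes.

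At day 7 the mice did not share a direction. The median over members was -1.01 in mouse 1, -0.85 in mouse 2, and 0.44 in mouse 3, and the lesioned side was higher for 10, 12, and 48 of the 56 members. The median of the mean differences was -0.51, with 13 members above 0. Members lower in all 3 mice numbered 2, Krtap6-1 and Krtap6-5, against 16.7% of all genes. No member had lesioned and sham samples that did not overlap, against 10.4% of all genes with lesioned samples all above and 6.91% with lesioned samples all below. In limma with Benjamini-Hochberg adjustment, 0 of 53 members tested were called, against 1.53% of 15081 genes, and 3 members and 1848 genes had an unadjusted p under 0.05. Without day 7 mouse 3, 127 of 15123 genes were called, and 3 members were among them with lower levels on the lesioned side, Krtap9-3 (adjusted p = 0.026), Krtap1-3 (0.036), and Krtap2-4 (0.041, limma).

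The 3 classes differed in mice 1 and 2 of day 7. All 16 high glycine-tyrosine genes were lower on the lesioned side in both mice, with median log2 differences of -2.25 and -1.91. Of the 21 ultrahigh sulfur genes, 2 were higher on the lesioned side in mouse 1 and 11 in mouse 2, with medians of -0.93 and 0.38. The high sulfur genes had medians of 0.00 and -0.89. The difference between classes was not tested.

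The lowest day 7 differences were all in high glycine-tyrosine genes, Krtap19-9b (-2.0 ± 2.45), Krtap6-3 (-1.96 ± 1.97), and Krtap16-3 (-1.82 ± 1.68, SD, n = 3, log2). Krtap19-9b went from 138 to 9.80 TPM in mouse 1 and from 379 to 45.1 TPM in mouse 2, but from 126 to 221 TPM in mouse 3. The highest were Krtap31-1 (0.99 ± 0.89), Krtap4-13 (0.89 ± 1.09), and Krtap27-1 (0.58 ± 1.11). Of these, Krtap31-1 was too low to be tested at day 7. It was listed at 0 on both sides of mouse 1, and went from 0 to 0.703 TPM in mouse 2 and from 0.115 to 1.51 TPM in mouse 3. Krtap15 and Krtap14, with log2 differences of -2.17 and -2.38 in mouse 1, and -2.59 and -2.42 in mouse 2, were as low there as the high glycine-tyrosine genes although the composition limits put them in the high sulfur class.

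**Figure D3:**
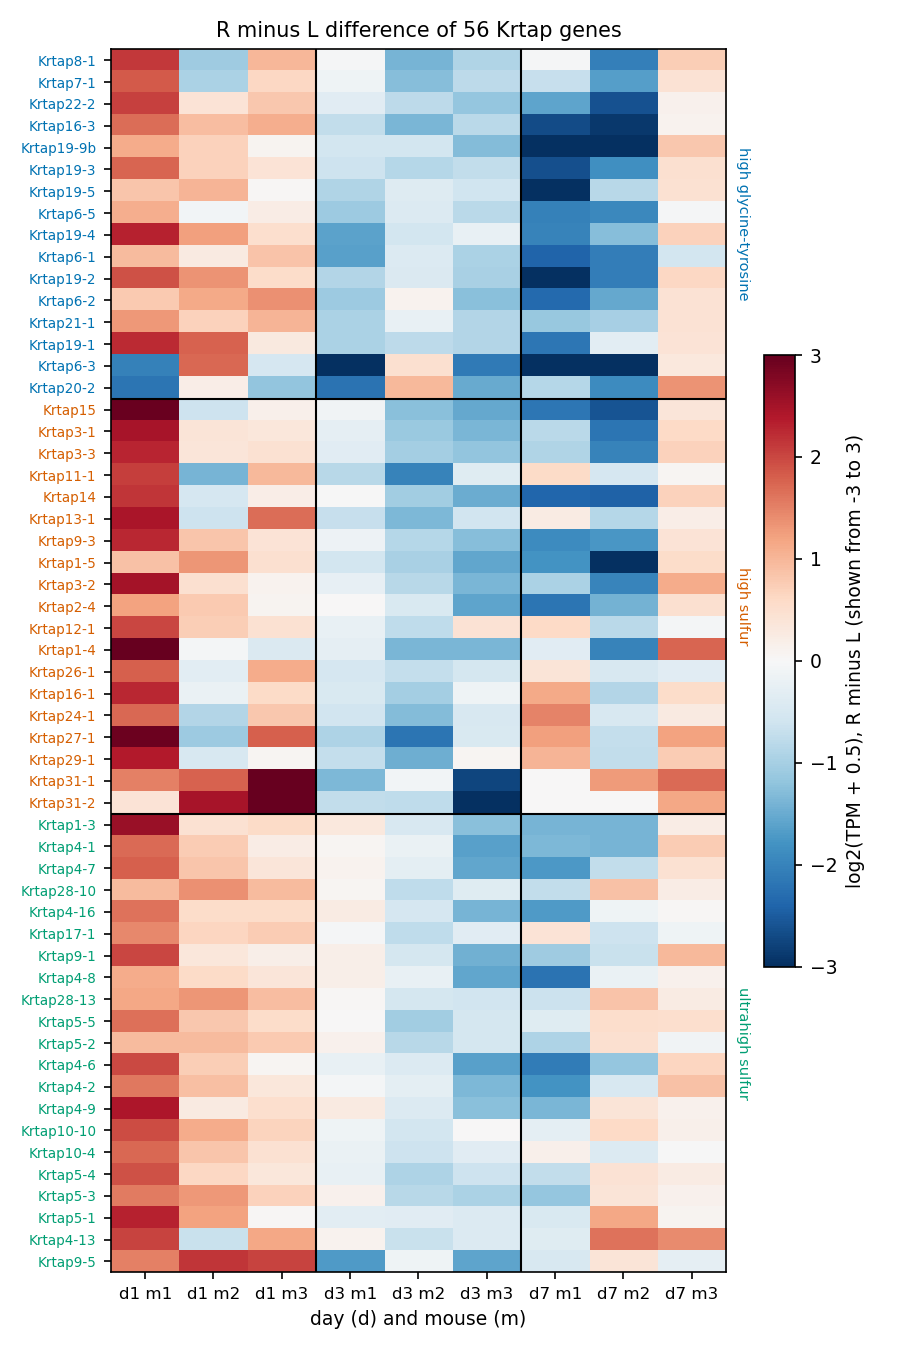
The color shows the difference in log2(TPM + 0.5), R minus L, for 56 Krtap genes (rows, grouped by class and ordered by mean TPM) in 9 mice (columns), red where the lesioned side is higher and blue where it is lower. Day 1 columns are mostly red, with 54, 42, and 53 members above 0, day 3 columns mostly blue, with 14, 3, and 2 above 0, and in day 7 mice 1 and 2 all 16 high glycine-tyrosine rows are below 0, with medians of -2.25 and -1.91, although the lowest single value in mouse 2 is that of Krtap1-5, a high sulfur gene, at -3.44.

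Over all days together, 0 of 54 members tested were called for the lesion (limma with Benjamini-Hochberg adjustment), against 3.10% of 14757 genes, and the smallest adjusted p was 0.19, for Krtap6-3. An unadjusted p under 0.05 was found for 1 member and 2163 genes. The change of the lesion effect between days was tested as interaction terms. It was called for 0 of 54 members, against 0.183% of 14757 genes, with an unadjusted p under 0.05 for 5 members and 1256 genes. The smallest p among members was that of Krtap22-2 (adjusted p = 0.43, limma with Benjamini-Hochberg adjustment), which was higher on the lesioned side in 3 of 3 mice at day 1 and lower in 3 of 3 at day 3.

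The sham sides were then compared between days. Krtap levels were highest at day 3: all 56 members had a higher mean log2 level in the day 3 sham samples than in those of day 1 or of day 7. The median excess was 2.00 over day 1 and 1.20 over day 7 on the log2 scale. In 27 of the 56 members, the 3 sham samples of day 3 were all above the other 6, as in 3.03% of all genes with a mean of at least 1 TPM. On the lesioned side this was so in 0 members, against 3.02% of all genes. The same day 3 sham samples enter the lesion comparison at day 3, so the high sham levels and the negative differences at that day are not separate observations.

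In limma's F test over the 3 days with Benjamini-Hochberg adjustment, 6 of 53 members tested were called among the sham samples, against 0.0613% of 14671 genes. An unadjusted p under 0.05 was found for 37 members (69.8%), against 14.3% of all genes. The 9 called genes in all were 6 Krtap genes and Gm11562, Gm11555, and Gm7735. These 3 others lie inside the Krtap clusters, Gm11562 and Gm11555 on chromosome 11 (99619619 to 99620435 and 99649599 to 99650236) and Gm7735 on chromosome 16 (89169490 to 89169648), and they were named after their values were seen. Of the runs of 31 bases of Krtap2-4, 24.7% are shared with Gm11562, so their levels are not fully separate.

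The 6 members belong to subfamilies 1, 3, and 9 and lie together at one end of the chromosome 11 cluster, in a stretch that also holds Krtap1-5, which was not called. Krtap1-4 had the smallest p (adjusted p = 0.00095, limma). Its sham levels were 18.5, 18.1, and 17.4 TPM at day 1, 182, 253, and 242 TPM at day 3, and 52.8, 66.6, and 42.4 TPM at day 7. No groups overlapped, and on the log2 scale the day 3 mean was 3.60 above that of day 1 and 2.06 above that of day 7. The lesioned samples of Krtap1-4 were 243, 17.5, and 12.9 TPM at day 1 and 42.0, 16.1, and 143 TPM at day 7, and so they spread across the whole range of the sham levels.

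Krtap1-3 (adjusted p = 0.016, limma) was at 50.8 ± 12.1 TPM at day 1, 329 ± 70.8 at day 3, and 174 ± 34.0 at day 7 in sham samples (SD, n = 3). Krtap9-3 (adjusted p = 0.019, limma) was at 73.9 ± 29.9, 510 ± 70.6, and 228 ± 25.5 TPM at days 1, 3, and 7. The genes of subfamily 3 had the same order of days. Krtap3-1 was at 153 ± 43.5, 1272 ± 209, and 404 ± 131 TPM (adjusted p = 0.019, limma). Krtap3-2 was at 69.7 ± 2.39, 432 ± 76.1, and 169 ± 59.5 TPM (adjusted p = 0.019), and Krtap3-3 at 157 ± 54.5, 919 ± 159, and 342 ± 84.1 TPM (adjusted p = 0.047, limma). In all 6 genes the day 3 sham samples were above every other sham sample. Krtap3-2 and Krtap3-3 share part of their sequence, as given above, and are not independent measurements.

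The number of members called rested on single mice. Leaving out 1 sham sample at a time gave 2 to 18 called genes, with 1 to 9 members among them: 1 without day 1 mouse 2, day 1 mouse 3, day 3 mouse 2, or day 3 mouse 3, 2 without day 3 mouse 1 or day 7 mouse 1, and 9 without day 1 mouse 1. Krtap1-4 was called in 9 of these 9 fits, Krtap1-3 and Krtap3-1 in 4, Krtap3-2 and Krtap9-3 in 3, and Krtap3-3 in 1. In the 9 lesioned samples, an alternative added after the data were seen, 0 of 54 members were called for day, against 17.1% of 14701 genes, with an unadjusted p under 0.05 for 4 members and 5141 genes (limma). On the mean of both sides of each mouse, 4 of 53 members were called, against 8.47% of 14672 genes. These were Krtap22-2, Krtap6-3, Krtap20-2, and Krtap1-4, with adjusted p of 0.039, 0.039, 0.041, and 0.045 (limma).

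**Figure D4:**
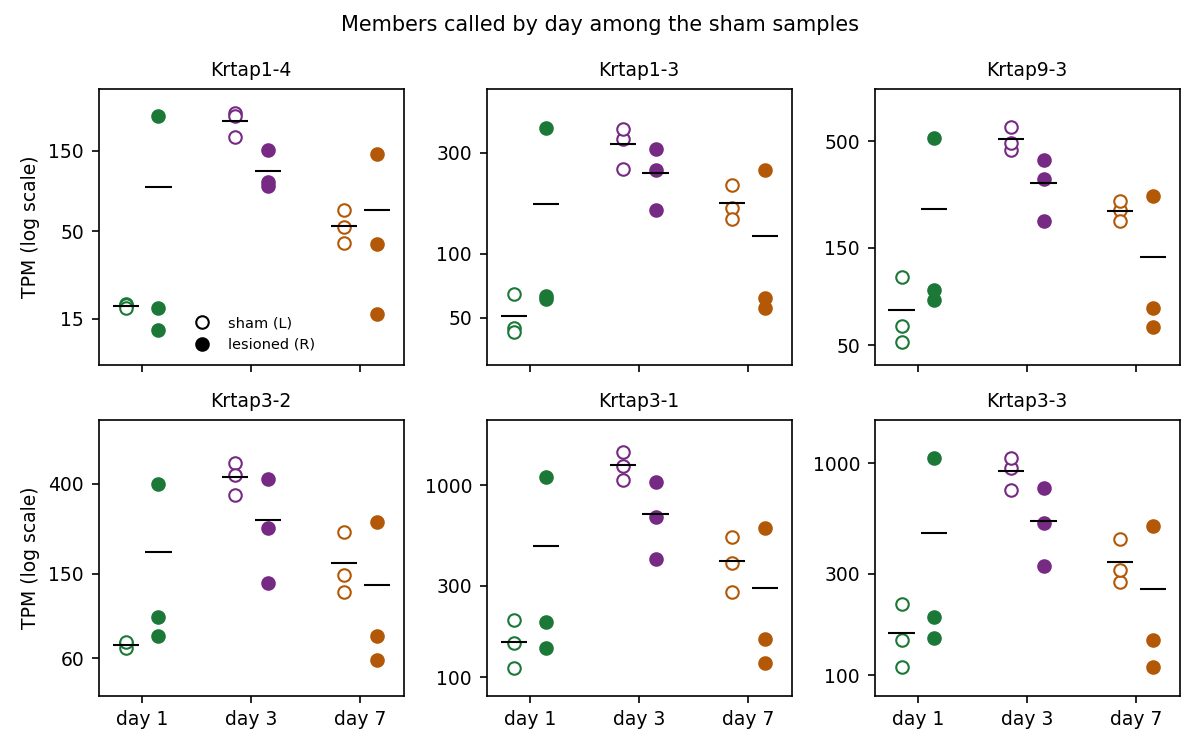
TPM (y axis, log scale) of the 6 members called between days among the sham samples, with open circles for sham samples, filled circles for lesioned samples, and a line at the mean of each group of 3. The day 3 sham samples lie above all other sham samples in each panel, while the lesioned samples of days 1 and 7 spread widely, as in Krtap1-4 from 12.9 to 243 TPM at day 1.

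Most members varied together over the 18 samples. The median correlation of log2 levels over the 1540 pairs of members was 0.70, with a range of -0.06 to 0.99, and the first principal component held 66.9% of the variance of the 56 genes. Pairs in the same subfamily (72 pairs) had a median of 0.93 and pairs in different subfamilies (1468 pairs) 0.69. These are descriptions over samples that share library, mouse, and, for close relatives, runs of sequence. Krtap8-1 and Krtap7-1, which share no runs of 31 bases with other genes, had a correlation of 0.99.

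A few members followed other patterns. Krtap31-2, Krtap31-1, Krtap6-3, Krtap20-2, and Krtap9-5 had the lowest median correlations with the other members, from 0.17 to 0.41. Their promoters are printed above, and a link between promoter likeness and level was not tested. Krtap9-5 correlated with Krtap31-1 at 0.73 and with Krtap31-2 at 0.78, and 99.9% of its runs of 31 bases were its own. Krtap31-1 correlated with Krtap31-2 at 0.93, which the shared sequence of these genes also bears on. High levels of these 3 genes were found in the lesioned sides of day 1 mice 2 and 3 and in the sham side of day 3 mouse 3, where Krtap31-1 was at 13, 9.91, and 12.4 TPM and Krtap9-5 at 2.04, 1.87, and 5.29 TPM. In the sham side of day 3 mouse 1, Krtap31-1 was at 9.57 TPM and Krtap9-5 at 2.81 TPM.

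Krtap6-3 and Krtap20-2, both high glycine-tyrosine genes of chromosome 16, had a correlation of 0.86. In day 3 mouse 2 they were higher on the lesioned side, Krtap6-3 from 29.8 to 42.2 TPM and Krtap20-2 from 6.92 to 14.1 TPM, and with Krtap6-2 they were the 3 members higher on that side of that mouse. Krtap11-1, a cortex gene, and Krtap13-1 made another set, with a correlation of 0.93, and Krtap24-1 correlated with Krtap11-1 at 0.87. These genes, with Krtap16-1, Krtap26-1, Krtap27-1, and Krtap29-1, were lower on the lesioned side of day 1 mouse 2 (Krtap11-1 from 629 to 240 TPM) and higher on the lesioned side of day 7 mouse 1 (Krtap11-1 from 155 to 231 TPM), which was opposite in both mice to Krtap22-2, from 231 to 305 and from 475 to 158 TPM. The sets were noticed after the values were seen and were not tested.

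The 2 genes of subfamily 28, on chromosome 1, had a correlation of 0.98. Krtap28-10, with the most cysteine of any member, was higher on the lesioned side in 3 of 3 mice at day 1 (1.09 ± 0.23, SD, n = 3, log2) and had mean differences of -0.35 ± 0.41 at day 3 and 0.12 ± 0.82 at day 7. The members of subfamilies 5, 10, 12, and 17, best known from the cuticle, had day 7 mean differences from -0.21 in Krtap5-3 to 0.27 in Krtap5-1, with Krtap5-5 at 0.22 ± 0.50, Krtap10-10 at 0.15 ± 0.45, and Krtap17-1 at -0.11 ± 0.51. Those of subfamilies 1, 2, 3, 4, 8, 9, and 11, best known from the cortex, spanned this range and more, from -1.56 ± 2.01 in Krtap1-5 and -1.04 ± 1.38 in Krtap2-4 to 0.04 in Krtap11-1 and 0.89 ± 1.09 in Krtap4-13. The difference between these groups of subfamilies was not tested. Krtap21-1, a high glycine-tyrosine gene, was at -0.56 ± 0.87, and Krtap26-1 at -0.15 ± 0.46.

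Among the lists of hair follicle genes, the hair shaft keratins varied most closely with the Krtap genes. The 15 hair shaft keratins in the table summed to 681 to 8432 TPM. The mean log2 level of this list correlated with that of the 56 Krtap genes at 0.81 (18 samples, a description). Correlations were lower for other hair shaft and cortex genes (0.65), inner root sheath genes (0.52), outer root sheath and bulge genes (0.35), and hair matrix regulators (0.23). Krt34 and Krt86, keratins of the hair cortex, had correlations of 0.96 and 0.94, and Krt35, a keratin of the early cortex and the cuticle, had 0.24. The Krtap sum was 1.93 to 6.75 times the keratin sum. The ratio did not keep a side: at day 1 mouse 2 it went from 1.93 on the sham side to 3.90 on the lesioned side, and at day 7 mouse 1 from 6.75 to 2.43, where the keratin sum was 1.45 times and the Krtap sum 0.522 times that of the sham side.

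At day 3, 0 of the 15 hair shaft keratins, 0 of 9 inner root sheath genes, and 0 of 9 other hair shaft and cortex genes had a higher mean log2 level on the lesioned side, with median differences of -1.01, -1.09, and -0.89. None of these 33 genes was called in limma. The sums of the hair shaft keratins overlapped, at 3343 to 8432 TPM in sham and 2075 to 3418 TPM in lesioned samples. Those of the inner root sheath genes were 1771 to 3326 TPM in sham and 493 to 1564 TPM in lesioned samples, without overlap. Those of the other hair shaft and cortex genes were 2587 to 3575 and 1297 to 2159 TPM. Among all single genes at day 3, lesioned samples were all below sham samples in 9.81% and all above in 11.6%. Regulators of the hair matrix, 11 genes, summed to 242 to 311 TPM in sham and 181 to 203 TPM in lesioned samples, and 6 sebaceous gland genes to 960 to 1571 and 923 to 981 TPM. Lower means were not limited to the hair lists. On the lesioned side 0 of 9 genes of the interfollicular epidermis and 2 of 8 skeletal muscle genes were higher. Their median differences were -0.34 and -0.39, and none was called. The muscle genes summed to 15505 to 18076 TPM in sham and 13573 to 19198 TPM in lesioned samples. The leukocyte genes summed to 151 to 505 TPM in sham and 619 to 1444 TPM in lesioned samples, higher without overlap. In mean log2 level 2 of these 6 genes were higher on the lesioned side, with a median difference of -0.03, and none was called. S100a8 had the highest mean of the 6, 602 TPM over all samples. No gene of these lists was at 0 in all samples. The part of these cell types in the Krtap differences was not tested.

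At day 1, 13 of 15 hair shaft keratins, 9 of 9 inner root sheath genes, and 9 of 9 other hair shaft and cortex genes had a higher mean log2 level on the lesioned side, and none was called in limma. The skeletal muscle genes summed to 4578 to 22916 TPM in the day 1 sham samples and 6444 to 14131 TPM in the lesioned samples, the widest range of any day. At day 7 the counts were 4 of 15, 6 of 9, and 2 of 9. For the day comparison among sham samples, 0 of these 33 genes were called (limma with Benjamini-Hochberg adjustment), although the keratin sum of sham samples was 3343 to 8432 TPM at day 3 against 896 to 3003 TPM at day 1 and 1037 to 2325 TPM at day 7, without overlap.

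**Figure D5:**
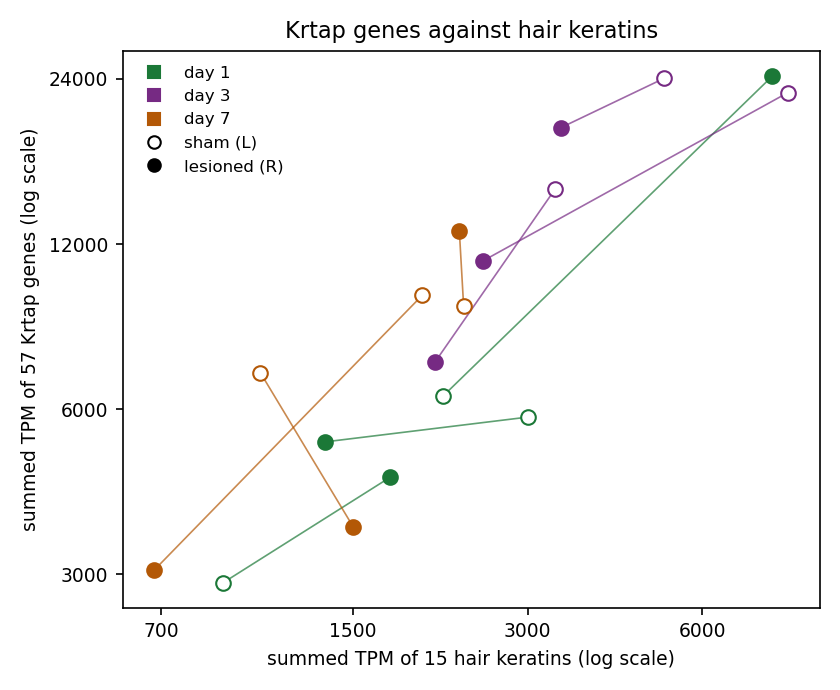
Summed TPM of 57 Krtap genes (y axis) against that of 15 hair shaft keratins (x axis), both on log scales, for 18 samples colored by day, with a line joining the sham (open) and lesioned (filled) side of each mouse. Samples with high keratin sums had high Krtap sums, and the sides of day 7 mouse 1 run against this trend.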

How the data were processed

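RNA from 18 biopsies, both sides of 9 mice, was sequenced. The authors called bases with bcl2fastq 2.17.1.14, removed duplicates with ParDRe, trimmed with Fastp, pseudoaligned to mouse GRCm38 cDNA with Kallisto 0.43.1, and normalized in Sleuth. Removing duplicate reads can lower the values of short, abundant transcripts such as these. The deposited signal values are TPM normalized between samples by the authors, with sums of 833186 to 1143839. The tests had been chosen for plain TPM and were kept. Transcripts were matched to GENCODE M21 (98.46%) and summed by gene. Depth was estimated from low values, of which 79.2% to 87% per sample fell within 0.1 of a whole read, where 20% would if spread evenly.

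A gene was tested where no fewer than 47% of the samples fitted had 1 TPM or more. Values as log2(TPM + 0.5) went into limma 3.58.1 (R 4.3.3), whose prior variance followed a trend with the mean level, and p values were adjusted over all genes by Benjamini-Hochberg. Fold changes on this scale understate those of low genes. Models had terms for day and lesion (18 samples), for lesion at each day (6 samples), for their interaction, or for day (9 sham samples). R minus L differences are within mice. Named members were the 10 highest, the highest of each subfamily, every member called, and the 3 highest and 3 lowest differences at each day. The members, lists, and rules were chosen with earlier results of these data known. The sides of a mouse are paired by the labels, and their deviations from group means correlated at 0.13 to 0.51 over all genes. The replicate block (the mouse as a term) was an alternative, as were other pseudocounts, filters, scalings, and samples. The fits were tested on simulated data. In the main fits, p values rest on the spread between samples, with the sides of a mouse taken as separate samples. With the replicate block they rest on the spread of the R minus L differences. Depths are estimates, given without intervals. Groups of 3 are too few for a test of outliers. Python 3.11.15, numpy 2.4.6, pandas 2.3.3, and matplotlib 3.10.9 were used.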

Additional observations from a re-analysis of the deposited data

Results flagged for a closer look

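The lesion difference of most Krtap genes, as TPM, had opposite signs at day 1 and day 3. The median log2 difference over 56 members, R minus L, was 0.97 at day 1, where it was above 0 in each of the 3 mice, and -0.74 at day 3, where it was below 0 in each. The difference between the days was not tested for this median. Relative to the hair shaft keratins of each sample the signs were the same, with medians of 0.42 and 0.25. Single mice differed in this. The ratio of the Krtap sum to the keratin sum was lower on the lesioned side in day 1 mouse 3 (3.24 to 2.59) and day 3 mouse 3 (4.52 to 3.52). The Krtap sum, unlike the median, was lower on the lesioned side in day 1 mouse 2, at 5803 TPM in sham and 5228 TPM in lesioned. Among subfamily sums, 12 of 27 were higher on the lesioned side in all 3 mice of day 1 and lower in all 3 of day 3, and 25 of the 56 members were, against 4.1% of all genes with a mean of at least 1 TPM. Of these members, 23 were tested for an interaction of lesion and day in limma, and none was called.

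Krtap31-2 and Krtap9-5 were too low in most samples for that test, and the difference between days was not tested in them. Krtap31-2 had a mean log2 difference of 2.16 at day 1 and -1.66 at day 3, and Krtap9-5 of 1.89 and -1.14. In both genes every mouse was higher on the lesioned side at day 1 and lower at day 3, but some of these differences lay near 0 TPM. Krtap31-2 went from 0.168 to 0.394 TPM in day 1 mouse 1 and from 0.352 to 0 in day 3 mouse 2. Krtap9-5 went from 0.589 to 0.493 TPM in day 3 mouse 2. As given above, the level of Krtap31-2 is uncertain, and Krtap9-5 was tested at day 1 only through its lesioned samples.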

How the results depend on the processing

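With the replicate block, 1 member was called at day 3 in place of 0, and the pairing changed no other count of called members. Among all genes, the block changed the calls from 457 to 517 over all days, from 230 to 328 at day 7, and from 27 to 36 for the interaction. It raised the members with an unadjusted p under 0.05 from 4 to 31 at day 1 (all genes 4.29% to 6.18%), from 8 to 33 at day 3 (14.7% to 18.7%), from 3 to 7 at day 7 (12.3% to 17.7%), and from 5 to 29 for the interaction (8.51% to 14.2%). Without the mean-variance trend 1 member was called at day 1, Krtap9-5, which was tested only through its lesioned samples. Leaving out a mouse gave 0 to 1 called members at day 3, 0 to 3 at day 7, and 1 to 9 for day among sham samples. For that comparison the lesioned samples gave 0. Over all days, at day 1, and for the interaction, 0 members were called whichever mouse was left out. The median difference at day 3 became 0.25 relative to the hair shaft keratins, and that at day 1 became 0.42. Leaving out a mouse gave medians of 0.54 to 1.20 at day 1, -0.87 to -0.58 at day 3, and -1.15 to -0.27 at day 7. The other alternatives changed no count of called members by over 1.5 times and moved no median beyond the spread between mice. Members with an unadjusted p under 0.05 at day 3 numbered 16 with equal sums and 0 in 1 fit of all 18 samples, in place of 8. With 3 mice a day, an adjusted p that misses the threshold does not show that levels were equal.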
